A study of Mus musculus with 11 samples.

Results

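The ERG transgene alone was compared with wild type in the prostates of C57BL/6 mice at 15 months of age. The comparison used 6 of the 11 RNA sequencing libraries of the series, 3 titled Pb-ERG and 3 titled WT, and the libraries were chosen by their titles. Pb-ERG mice carried the transgene that the study calls T2-ERG, a form of the TMPRSS2-ERG fusion product, under the probasin promoter, which is active in prostate epithelium. They carried no engineered Trp53 allele, and the WT mice were littermates. The other 5 libraries were 2 titled Trp53pcR172H/- and 3 titled "Pb-ERG, Trp53pcR172H/-", in which Cre recombinase under the probasin promoter left prostate cells with 1 R172H and 1 deleted Trp53 allele. These libraries gave the change with the same transgene in another background, where the study describes the tissue with both alterations as prostate tumour. Whether the Pb-ERG mice carried Cre, and which lobes of the prostate were dissected, is not given in the sources used here.

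ERG is a transcription factor of the ETS family that binds DNA around a GGAA core and is normally made in endothelial and blood-forming cells. In many human prostate cancers a gene fusion places it under the androgen-responsive TMPRSS2 promoter, so that luminal cells of the prostate express it. The mouse prostate is built of secretory lobes in which luminal cells make large amounts of a few secreted proteins under androgens, basal cells lie beneath them, and smooth muscle and fibroblasts surround the glands.

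Values were FPKM, fragments scaled to exon length and to the size of the library. Each change below is the Pb-ERG mean less the WT mean on the log2(FPKM + 1) scale, which understates the change of low genes. The 6 libraries held from 15795121 to 51965100 fragments. In Pb-ERG replicate 2, the deepest, 60.3% of fragments lay in listed genes, against 86.4% to 95.5% in the other 5. Luminal markers marked the tissue in every library, with a summed level of 1983 to 2879 FPKM in WT and 1387 to 2173 in Pb-ERG. Across genes, Pb-ERG replicate 1 correlated with the 3 WT libraries at a Pearson r of 0.932 to 0.952 and with Pb-ERG replicates 2 and 3 at 0.899 and 0.928, while replicates 2 and 3 correlated with each other at 0.960. Replicate 1 was thus closer to WT than replicates 2 and 3 were, and list counts that move without it are given both ways. It also stood apart in immediate-early genes, picked after their values were seen: Fos, an AP-1 subunit, had an FPKM of 129 in it, 3.33 and 2.55 in replicates 2 and 3, and 0.874 to 1.33 in WT. Zfp36, an RNA-binding protein induced alongside it, had 41.2, 12.5 and 13.98 in Pb-ERG and 3.89 to 4.53 in WT. The part of these differences in the results was not tested apart from leaving the library out. Because whole tissue was sequenced, fewer cells of a type and less RNA per cell cannot be told apart.

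The gene Erg itself lies on chromosome 16 (95359169 to 95586593, build GRCm38), and its value counts the reads assigned to the mouse locus. Whether these reads came from the transgene or from the mouse gene was not tested. Erg stood at 0.479, 0.851 and 0.457 FPKM in WT replicates 1 to 3, against 9.14, 5.81 and 11.5 in the Pb-ERG libraries. All 3 Pb-ERG libraries lay above all 3 WT libraries, and the change of 2.59 (SE 0.34) passed the test in limma (adjusted p = 0.00545) and in 18 of 18 alternative fits. Trp53 had an FPKM of 2.96 to 4.78 in WT and 6.36 to 7.73 in Pb-ERG, and this change of 0.79 did not pass (adjusted p = 0.0692). Without Pb-ERG replicate 1 or with libraries weighted by their quality it passed, and its adjusted p ran from 0.04 to 0.236 over 18 alternative fits.

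At an adjusted p under 0.05, 296 of 15583 genes tested (1.9%) differed between Pb-ERG and WT. Of these, 246 (1.58% of the genes tested) were higher in Pb-ERG and 50 (0.321%) were lower. For all 296 the 3 libraries of a group lay on 1 side of the other 3. Among all genes tested, the 3 Pb-ERG libraries lay above the 3 WT libraries for 3550 (22.8%) and below them for 1035 (6.64%). The lowest adjusted p was 0.00166, so no gene passed 0.001, and 3022 genes had an unadjusted p under 0.05. The median change was 1.59 for the higher genes and -1.74 for the lower genes, against 0.13 over all genes tested. Scaling by median-of-ratios moved that last median to 0.0033 and called 266 genes higher and 145 lower. Upper-quartile scaling called 296 higher and 134 lower.

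The count depended strongly on single libraries. Without Pb-ERG replicate 1 it rose to 1312 genes, 1068 of them higher. Without Pb-ERG replicate 2 or 3 it fell to 93 or 55, and without WT replicate 1, 2 or 3 to 61, 62 or 67. The sign of the change could not turn for the 296 genes in these fits, since every Pb-ERG value lay beyond every WT value. Their signs therefore say nothing about how far the calls depend on single libraries. Pb-ERG replicate 1 was the library nearest WT for 169 of the 246 higher genes and for 35 of the 50 lower genes. The median distance of the higher genes from the WT mean was 1.31 in Pb-ERG replicate 1, 1.61 in replicate 2 and 1.89 in replicate 3. By locus type, 236 of the 296 were protein-coding genes, 13 long non-coding RNAs, 9 microRNA loci and 35 loci with no type given, and 130 overlapped another listed locus. The libraries are not stated to keep strand, so reads of overlapping loci cannot be told apart.

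The largest rises included proteins of epithelial defence. Lcn2, which encodes lipocalin 2, an iron-siderophore binding protein of innate defence, had an FPKM of 12.8, 6.04 and 17.3 in WT and 367, 257 and 299 in Pb-ERG. Its 3 Pb-ERG values lay close together and far above WT, with a change of 4.66 (SE 0.43, adjusted p = 0.00166, limma). Wfdc2, a small protein with whey acidic protein domains, had 8.17, 6.37 and 6.64 in WT and 63.1, 303 and 666 in Pb-ERG, a change of 4.87 (adjusted p = 0.00728). Its relative Wfdc18 was at 0, 0.825 and 0.972 in WT and at 13.6, 29.7 and 52.0 in Pb-ERG, a change of 4.23 (adjusted p = 0.00286). For both the order among Pb-ERG libraries was the same, with replicate 1 lowest and replicate 3 highest. Saa3, an acute-phase serum amyloid A protein, was at 1.88, 0.463 and 1.07 in WT and at 87.2, 37.2 and 123 in Pb-ERG, a change of 5.18 (adjusted p = 0.00689). Serpinb11, a member of the clade B serpins, was at 0.472 to 0.638 in WT and at 31.1, 87.6 and 133 in Pb-ERG, a change of 5.53 (SE 0.52, adjusted p = 0.00166). These 5 genes passed the test in every alternative fit.

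The epithelial defence list gave the largest count of any list. Of 23 tested members 7 were called higher and none lower, 14 lay above all WT libraries, and the median change was 1.21. Over all genes tested 1.58% were called higher and 22.8% lay above all WT libraries. The called members were Saa3, Wfdc2, Lcn2, Ltf, Tlr2, Saa2 and Nfkbiz, of which the last 3 fall outside the naming rule. Ltf, the iron-binding protein lactoferrin, rose from 0.157 to 1.25 in WT to 9.96, 20.6 and 13.7 in Pb-ERG, a change of 3.19 (adjusted p = 0.0371), and was called in 7 of 18 alternative fits. Tlr2, a receptor for bacterial lipoproteins, was at 0.993, 1.30 and 1.34 in WT and at 4.96, 3.23 and 7.09 in Pb-ERG (adjusted p = 0.022). Saa2 had no fragments in WT and 0.781, 1.86 and 1.54 FPKM in Pb-ERG. Saa2 was thus tested because other libraries held it. Saa2 and Ltf, both low in WT, could hardly be called lower, so the count of the list is a description. The most abundant tested member, the beta-defensin Defb1, overlapped between groups at 501 to 1318 in WT and 787 to 1775 in Pb-ERG. Reg3g, a secreted antibacterial lectin chosen after its values were seen, was at 1.29, 0.876 and 6.65 in WT and at 188, 380 and 1141 in Pb-ERG, a change of 7.08 that did not pass (adjusted p = 0.0662). The list's count was 11 without Pb-ERG replicate 1, 4 and 3 without Pb-ERG replicates 2 and 3, and 3 without any 1 of the WT libraries.

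Further large rises are given as examples picked after their values were seen. Lrg1, a leucine-rich acute-phase glycoprotein, was at 6.92 to 11.9 in WT and 76.2, 173 and 233 in Pb-ERG (change 3.86, adjusted p = 0.0272). Cp, the copper-carrying ferroxidase ceruloplasmin, was at 10.2 to 13.4 in WT and 81.4, 118 and 311 in Pb-ERG (change 3.52, adjusted p = 0.00297). Serpina3n, a secreted protease inhibitor, was at 5.60 to 7.94 and 45.1, 73.2 and 187 (change 3.47, adjusted p = 0.0205). In all 3 genes Pb-ERG replicate 1 was lowest and still above every WT library. Qsox1, which forms disulfide bonds in secreted proteins, was at 17.0, 17.7 and 26.9 in WT and at 447, 204 and 426 in Pb-ERG (change 4.01, adjusted p = 0.00286).

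The largest change among the called genes was in Lman1l (chromosome 9, 57607085 to 57620774), which encodes a relative of the cargo receptor LMAN1 that carries glycoproteins from the endoplasmic reticulum to the Golgi. Its FPKM was 0.366, 0.656 and 1.28 in WT and 54.7, 172 and 244 in Pb-ERG, a change of 6.27 (SE 0.59, adjusted p = 0.00166, limma). Otos (chromosome 1, 92644218 to 92648841), which encodes the small secreted protein otospiralin known from the inner ear, was at 0, 0.0873 and 0 in WT and at 10.8, 27.4 and 49.4 in Pb-ERG, a change of 4.64 (SE 0.42, adjusted p = 0.00166). Both genes went from near the detection limit to levels that no WT library approached, and both passed in every alternative fit.

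Promoter sequence from RefSeq (GRCm38.p6, 250 bases before to 50 after a start) was held for 7 of the 12 genes with the largest rises. The sequence CCGGAA, a narrower form of the GGAA core, was found on neither strand for any of the 7 genes. It was found for 28 of 145 higher genes (19.3%) and 5 of 31 lower genes (16.1%) with an entry, and for 29.9% of 10528 tested genes. Other sequences around GGAA were not counted. The promoters of Lman1l and Otos hold GGAA without CC before it, so the absence of CCGGAA does not mean the absence of a GGAA core. Among the 7, Lman1l and Otos hold AGAACA, a hexamer found in androgen response elements, with 2 copies each counting both strands, and the other 5 hold none. That hexamer is in the promoters of 2 of the 6 large falls with an entry, of 28 of 145 higher genes (19.3%), of 8 of 31 lower genes (25.8%) and of 15.2% of the tested genes. The 250 bases before the start of both genes are shown because they alone of the 7 hold the hexamer, with the hexamer, or its reverse complement, in capitals and written 5′ to 3′ on the gene's own minus strand. The copies begin at bases 60 and 85 of the Lman1l window and 73 and 173 of the Otos window.
Lman1l, chr9:57620775-57621024: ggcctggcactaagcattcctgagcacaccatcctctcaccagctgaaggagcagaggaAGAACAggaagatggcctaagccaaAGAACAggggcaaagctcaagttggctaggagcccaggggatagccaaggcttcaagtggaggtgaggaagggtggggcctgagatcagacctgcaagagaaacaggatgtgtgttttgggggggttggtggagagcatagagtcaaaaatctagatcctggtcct
Otos, chr1:92648842-92649091: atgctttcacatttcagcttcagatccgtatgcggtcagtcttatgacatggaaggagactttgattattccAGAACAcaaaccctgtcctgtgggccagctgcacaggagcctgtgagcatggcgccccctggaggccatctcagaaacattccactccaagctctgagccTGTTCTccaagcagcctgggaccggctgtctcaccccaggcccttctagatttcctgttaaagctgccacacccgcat
A match describes the letters only, and the entries covered 145 of the 246 higher and 31 of the 50 lower genes, too few to compare shares between the groups of genes.

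All 5 tested loci of the imprinted H19 and Igf2 neighbourhood on chromosome 7 were called higher. In WT all stayed under 1 FPKM except Gm27786 in replicate 3 (6.33). Such loci were tested because other libraries held them and could hardly be called lower, so the count is a description. H19 (142575529 to 142578143), a long non-coding RNA made from the maternal allele and abundant before birth, was at 0.291, 0.511 and 0.886 in WT, which is 14, 19 and 32 fragments. It was at 182, 31.7 and 73.8 in Pb-ERG, which is 10464, 3766 and 4298 fragments, and its change of 5.63 (SE 0.59, adjusted p = 0.00239) held in every alternative fit. Here Pb-ERG replicate 1 was the highest library and replicate 2 the lowest. Igf2 (142650766 to 142666816), the neighbouring growth factor expressed from the paternal allele, was at 0.389, 0.925 and 0.953 in WT and at 30.03, 6.95 and 11.7 in Pb-ERG, a change of 3.08 (adjusted p = 0.0304). Igf2 was chosen after its values were seen, because it lies beside H19. The order of the Pb-ERG libraries was the same for both genes. Of the 5 loci, Mir675, Gm27483 and Gm27786 lie inside H19 and share its reads.

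Mir675 is the microRNA hairpin within the H19 transcript, and the value at this locus (0 to 0.754 in WT, 27.9 to 174 in Pb-ERG) reads the long transcript and not the mature microRNA. Shown are both mature arms of Mir675 and the 3p arms of Mir410 and Mir496a, called hairpin loci of both imprinted neighbourhoods. The seed, bases 2 to 8, is in capitals. The 5p arms of Mir410 and Mir496a are left out.
mmu-miR-675-5p: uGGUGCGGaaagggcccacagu
mmu-miR-675-3p: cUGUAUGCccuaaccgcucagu
mmu-miR-410-3p: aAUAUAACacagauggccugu
mmu-miR-496a-3p: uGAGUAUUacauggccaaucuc
No seed is shared among these 4 sequences, taken from RefSeq.

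Higher values also stood in the imprinted Dlk1 to Mirg neighbourhood of chromosome 12 (109452849 to 109749458), examined after its values were seen. Of 55 tested loci 5 were called higher, against 1.58% of all genes tested. Loci this near 0 in WT were tested only because other libraries held them and could hardly be called lower, so the count is a description. Dlk1, a Notch-related surface protein of fetal tissues, was at 0.0298, 0.0257 and 0.212 in WT and at 33.6, 12.5 and 55.5 in Pb-ERG, and its change of 4.78 did not pass (adjusted p = 0.0801). Rian, a maternally expressed long RNA, was at 0.106, 0.137 and 0.157 in WT and at 3.81, 14.5 and 21.0 in Pb-ERG (change 3.38, adjusted p = 0.0755). Meg3, at the head of the same maternal transcripts, was at 0.0392 to 0.0522 in WT and at 0.650, 13.6 and 12.7 in Pb-ERG (change 2.73, adjusted p = 0.0835). All 3 genes were near 0 in WT and above it in each Pb-ERG library, with the maternal transcripts lowest in replicate 1. The 5 called loci were small, Mir410, Mir496a, Gm24321, Gm23474 and Gm24564, had no fragments in WT, and the first 3 lie inside Mirg and share its reads. With Trp53pcR172H/- also present the values varied between libraries: Dlk1 was at 162, 0.777 and 52.8 in the 3 libraries titled "Pb-ERG, Trp53pcR172H/-", and Rian at 0.0592, 0.378 and 14.9.

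**Figure D1:**
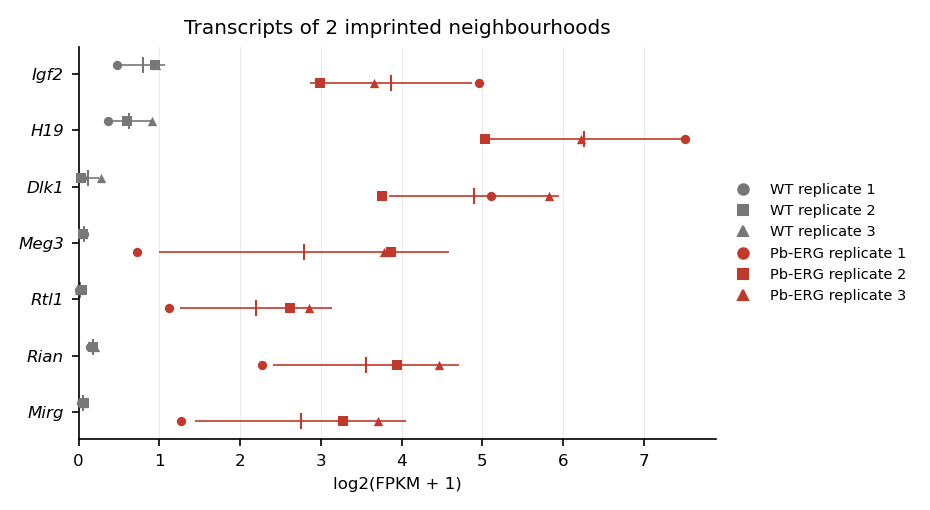
Level of 7 transcripts of the H19 and Igf2 and the Dlk1 to Mirg neighbourhoods as log2(FPKM + 1), with 1 point per library, a tick at the group mean and a bar of 1 SD (3 WT libraries grey, 3 Pb-ERG libraries red). Every Pb-ERG point lies right of every WT point, and Meg3, Rtl1, Rian and Mirg are lowest in Pb-ERG replicate 1 while H19 and Igf2 are highest there.

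Among the falls, Fgl1, a secreted fibrinogen-like protein, was at 337, 209 and 192 in WT and at 18.5, 3.71 and 6.94 in Pb-ERG, a change of -4.73 (SE 0.56, adjusted p = 0.00329, limma). Pnliprp1, a relative of pancreatic lipase, was at 384, 163 and 200 in WT and at 28.1, 13.9 and 2.69 in Pb-ERG, a change of -4.32 (SE 0.61, adjusted p = 0.00755). Both passed in every alternative fit. Mt3, a metallothionein that binds zinc and copper, was at 69.3, 83.1 and 98.7 in WT and at 13.7, 0.751 and 1.31 in Pb-ERG, a change of -4.42 (adjusted p = 0.0169). Bglap3, an osteocalcin-related gene with close copies, followed the same order at 85.4 to 109 and 12.9, 0.878 and 0.947 (change -4.67, adjusted p = 0.0138). In these 2 genes Pb-ERG replicate 1 kept the most transcript, and both calls were lost without Pb-ERG replicate 2 or 3 or any of the WT libraries, with adjusted p of up to 0.0961.

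Several enzymes were among the large falls. Car2, carbonic anhydrase 2, was at 219, 89.9 and 108 in WT and at 22.9, 19.9 and 13.3 in Pb-ERG (change -2.75, adjusted p = 0.0138). Gpt2, the mitochondrial alanine aminotransferase, was at 165, 101.5 and 120 and at 31.3, 14.02 and 23.6 (change -2.48, adjusted p = 0.00901). Lct, the disaccharidase lactase, was at 3.80 to 8.37 in WT and 0.053 to 0.264 in Pb-ERG (change -2.49, adjusted p = 0.0138). In these 3 enzymes all Pb-ERG libraries lay well under WT. The call of Gpt2 was lost without WT replicate 1, that of Car2 without WT replicate 1 or Pb-ERG replicate 2 or 3, and that of Lct without WT replicate 1 or 2 or Pb-ERG replicate 2 or 3. Tff3, a mucosal trefoil peptide, was at 9.05, 10.3 and 11.4 in WT and at 0.483, 0.507 and 0.0796 in Pb-ERG (change -3.07, adjusted p = 0.0138), and Tmem45b, a membrane protein, changed by -3.21 (adjusted p = 0.0179). Both calls were lost without Pb-ERG replicate 2 or 3 or WT replicate 2 or 3, and that of Tff3 also without WT replicate 1. Gm16063, which overlaps the antisense RNA Tbx3os1, changed by -3.09 and held in every alternative fit. Gm26812 (-2.82, adjusted p = 0.0454) and Gm28040 (-2.58, adjusted p = 0.0461) were called in 5 of 17 and 7 of 18 alternative fits. Among the rises, Gm10263, a pseudogene at 36.1, 3.69 and 1.69 in WT and 107, 96.6 and 251 in Pb-ERG, was called in 7 of 18.

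**Figure D2:**
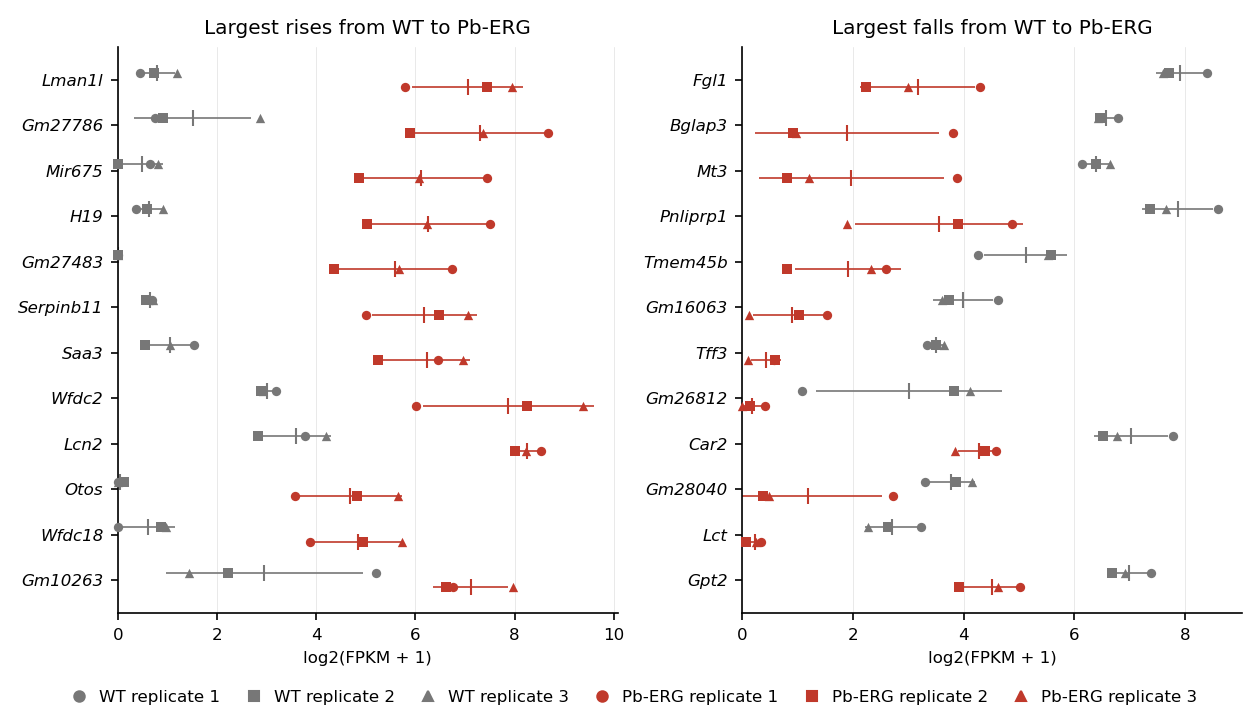
Level of the 12 genes with the largest rises (left) and the 12 with the largest falls (right) as log2(FPKM + 1), with 1 point per library, a tick at the group mean and a bar of 1 SD (n = 3 in each group). No gene has overlapping groups, and among the falls Pb-ERG replicate 1 is the red point nearest WT for every gene but Tff3.

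Of 21 tested ETS factors 2 were called higher, Erg and Elf3, none was called lower, and the median change was 0.39. An ERG transgene defines the group, so the call of Erg is not a result of the list. With Erg counted, the calls were 4 higher and 1 lower without Pb-ERG replicate 1. Without any other single library 1 call was left, Erg itself. Of all genes tested 1.9% were called. Elf3, an epithelial ETS factor induced in inflammation, was at 4.85, 3.78 and 5.47 in WT and at 9.10, 10.7 and 14.1 in Pb-ERG, a change of 1.10 (SE 0.21, adjusted p = 0.0256) that was lost when any library but Pb-ERG replicate 1 was left out. The most abundant ETS factor, Ehf, which marks differentiated epithelium, was at 329, 180 and 272 in WT and at 178, 67.2 and 113 in Pb-ERG. All its Pb-ERG values lay under the WT values, but the change of -1.18 did not pass (adjusted p = 0.257). Elf5 had 13.3 to 33.0 in WT and 16.4, 0.961 and 0.354 in Pb-ERG, so replicate 1 overlapped WT (adjusted p = 0.143).

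Of 30 tested genes linked to ERG in the literature on prostate cancer, 2 were called higher and none lower, 15 lay above all WT libraries, and the median change was 0.58. The shares over all genes tested were 1.58% called higher and 22.8% above all WT libraries. Leaving out Pb-ERG replicate 1 gave 5 higher and 1 lower, and leaving out any other single library gave 0. Ezh2, the methyltransferase subunit of the Polycomb repressive complex PRC2, was at 1.25, 1.64 and 1.83 in WT and at 3.68, 6.82 and 7.11 in Pb-ERG (change 1.38, SE 0.23, adjusted p = 0.0147). Ampd3, an AMP deaminase, was at 0.690 to 1.41 in WT and 2.60 to 4.97 in Pb-ERG (change 1.24, adjusted p = 0.0188). Both calls were lost when any library but Pb-ERG replicate 1 was left out. Sox9, Plat and Fzd4 lay above all WT libraries without passing (adjusted p = 0.121, 0.152 and 0.178). Hpgd, the most abundant member and a prostaglandin-degrading enzyme, was at 76.9 to 96.2 in WT and at 90.9, 11.4 and 39.3 in Pb-ERG.

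Of 24 tested androgen-response genes 1 was called higher and 1 lower, with a median change of -0.10 that became 0.11 without Pb-ERG replicate 2. Over all genes tested 1.58% were called higher and 0.321% lower. Without Pb-ERG replicate 1 the count was 3 higher and 3 lower, and without any other single library 0. Steap4, a metal reductase, was at 5.55 to 6.14 in WT and at 16.2, 38.2 and 58.4 in Pb-ERG (change 2.32, adjusted p = 0.0482). Abcc4, an exporter of cyclic nucleotides and prostaglandins, was at 7.39 to 11.4 in WT and at 4.01, 3.17 and 3.14 in Pb-ERG (change -1.18, adjusted p = 0.0261). They thus moved in opposite directions, and neither call held when a library other than Pb-ERG replicate 1 was left out.

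The secretory products of the lobes were lower in sum but passed the test for no gene. Of 21 tested members, 0 were called (3 were called lower without Pb-ERG replicate 1), 6 lay below all WT libraries and none above, and the median change was -0.61. Over all genes tested 0.321% were called lower, 6.64% lay below all WT libraries and 22.8% above. The summed level of the list was 77963, 111657 and 92215 FPKM in WT and 42865, 26540 and 32728 in Pb-ERG, with no overlap. Sbpl, a relative of spermine binding protein, was at 1039, 4293 and 6250 in WT and at 25.8, 3.54 and 2.21 in Pb-ERG, and its change of -8.70 (SE 2.01) had an adjusted p of 0.0571. Tgm4, the most abundant member, a prostate transglutaminase, was at 13555 to 21462 in WT and at 15450, 1941 and 3532 in Pb-ERG. Probasin itself (Pbsn), whose promoter drives the transgene, was at 8355 to 16870 in WT and 3041 to 5944 in Pb-ERG (adjusted p = 0.386). Products such as Msmb (2210 to 5391 in WT, 3495 to 6667 in Pb-ERG) and the beta-defensin Defb50 overlapped.

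Markers of the proximal luminal cells, a population near the ducts that expresses genes of stem and progenitor cells, were higher in sum. Most of that sum in Pb-ERG was Clu, Ly6a and Wfdc2, so the sum does not speak for the other markers. Of 20 markers tested, 4 were called higher and none lower, 10 lay above all WT libraries and 2 below, and the median change was 0.86. Among all genes tested 1.58% were called higher, 22.8% lay above all WT libraries and 6.64% below. Ly6a, the stem cell antigen Sca-1, was at 51.2, 43.2 and 45.7 in WT and at 184, 508 and 702 in Pb-ERG (change 3.09, SE 0.53, adjusted p = 0.0169). Clu, the secreted chaperone clusterin, was at 200, 34.7 and 168 in WT and at 637, 1102 and 2247 in Pb-ERG (change 3.45, adjusted p = 0.0482). Atp10b, a lipid flippase, rose by 1.59 (adjusted p = 0.0429, limma) from 0.424, 0.225 and 0.195 FPKM in WT. It was thus tested because other libraries held it and could hardly be called lower. Wfdc2, described above, is on this list as well. In all 4 genes Pb-ERG replicate 1 was the lowest of its group. The other known markers Psca, Krt4 and Krt7 did not pass. The calls of Ly6a, Clu and Atp10b were lost without any library but Pb-ERG replicate 1. Psca was at 6.36 to 14.1 in WT and 58.3, 5.46 and 12.2 in Pb-ERG. Trpv6, a calcium channel on the same list, was at 10.03 to 19.2 in WT and at 4.37, 1.35 and 0.631 in Pb-ERG (change -2.57, adjusted p = 0.0566). The count was 5 higher and 1 lower without Pb-ERG replicate 1 and 1 without any other single library.

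Ly6a lies on chromosome 15 among related genes for small lipid-anchored surface proteins, and 2 of its neighbours, picked after their values were seen, were called as well. Ly6c1 was at 9.73, 14.4 and 15.3 in WT and at 78.4, 268 and 323 in Pb-ERG (change 3.78, adjusted p = 0.0123). Ly6k was at 1.03, 2.89 and 2.98 in WT and at 27.6, 15.6 and 42.7 in Pb-ERG (change 3.12, adjusted p = 0.0283). Ly6e was at 196, 88.6 and 105 in WT and at 211, 528 and 762 in Pb-ERG and did not pass (adjusted p = 0.226), and Ly6d (1.90 to 5.87 and 9.73 to 12.9) did not pass either (adjusted p = 0.221). These genes are close in sequence, so reads may be split between them.

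The general markers of luminal and basal cells gave no call. Of 13 tested luminal markers 0 were called, with a median change of -0.10, and of 11 basal markers 0 were called, with a median of -0.07 (above 0 without WT replicate 1 or Pb-ERG replicate 2 or 3, at 0.24, 0.27 and 0.10). Krt18, a luminal keratin, was at 384 to 539 in WT and 263 to 429 in Pb-ERG. Krt15, the most abundant basal marker, was at 31.4 to 78.4 and 20.9 to 70.8. Among 27 junction genes and keratins 1 was called, Gjb1, the gap junction protein connexin 32, which rose from 17.0 to 20.2 in WT to 40.4, 47.4 and 70.7 in Pb-ERG (change 1.44, adjusted p = 0.0283). Its call held without Pb-ERG replicate 1, when the list had 2 higher and 1 lower, and was lost without any other of the 6 libraries.

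Of 30 tested cell cycle genes 3 were called higher and none lower, 24 lay above all WT libraries, and 29 changes were positive with a median of 0.60. Over all genes tested 1.58% were called higher, 22.8% lay above all WT libraries and 9658 of 15583 changes were positive. Cdk1, the kinase that drives entry into mitosis, was at 0.447, 0.413 and 0.489 in WT and at 1.53, 2.02 and 2.28 in Pb-ERG (change 1.02, SE 0.19, adjusted p = 0.0264). Cdc20, an activator of the anaphase-promoting complex, changed by 1.44 (adjusted p = 0.0482) and the mitotic kinase Aurkb by 0.83 (adjusted p = 0.0323). All 3 genes stayed under 5 FPKM in each of the 6 libraries and under 1 FPKM in every WT library. They were thus tested because other libraries held them and could hardly be called lower. Mki67, the proliferation marker Ki-67, was at 0.274 to 0.471 in WT and at 2.05, 3.87 and 2.22 in Pb-ERG and did not pass (adjusted p = 0.0811). The count was 8 without Pb-ERG replicate 1, and 0 without any other single library, with the replicate block or with the small non-coding RNA covariate.

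Among p53 targets 1 of 31 was called, and the median change was 0.41. The count was 4 without Pb-ERG replicate 1 and 3 with voom. The called gene was Cdkn1a, the cyclin-dependent kinase inhibitor p21, at 1.58, 0.829 and 1.42 in WT and at 3.86, 5.37 and 7.70 in Pb-ERG, a change of 1.52 (SE 0.26, adjusted p = 0.0177). All 3 Pb-ERG libraries lay above WT, and the call was lost without Pb-ERG replicate 2 or 3 or any WT library. With all libraries 14 of the 31 targets lay above all WT libraries and 1 below, against 22.8% and 6.64% of all genes tested. Of 18 Wnt and beta-catenin targets 1 was called, Nkd1, a feedback inhibitor of the pathway, which fell from 11.9 to 18.3 in WT to 5.94, 1.47 and 1.51 in Pb-ERG (change -2.22, adjusted p = 0.0202), a call lost without the same libraries. The median of that list was 0.01 and turned to -0.13 under median-of-ratios scaling, and a further member was called higher without Pb-ERG replicate 1.

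In polyamine synthesis, a pathway that the prostate runs at a high rate, 1 of 14 tested genes was called: Sms, spermine synthase, at 7.89, 7.69 and 5.93 in WT and at 2.62, 2.06 and 2.66 in Pb-ERG (change -1.24, SE 0.17, adjusted p = 0.00743), which held in every alternative fit. The polyamine count was 1 higher and 2 lower without Pb-ERG replicate 1. Of 23 pyrimidine synthesis genes 0 were called, with a median of 0.17 that moved to 0.01 under median-of-ratios scaling, and 2 were called higher without Pb-ERG replicate 1. None of 24 genes of protein folding in the endoplasmic reticulum was called, with a median of -0.51 that became -0.07 without Pb-ERG replicate 2. The chaperone Hspa5 was at 1263 to 2411 in WT and at 2906, 482 and 1092 in Pb-ERG. The fit without Pb-ERG replicate 1 called 1 of these 24 lower. None of 28 genes of drug and steroid metabolism was called (median -0.21), and 1 was called higher without Pb-ERG replicate 1. Of the 3 small non-coding RNAs none was called.

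**Figure D3:**
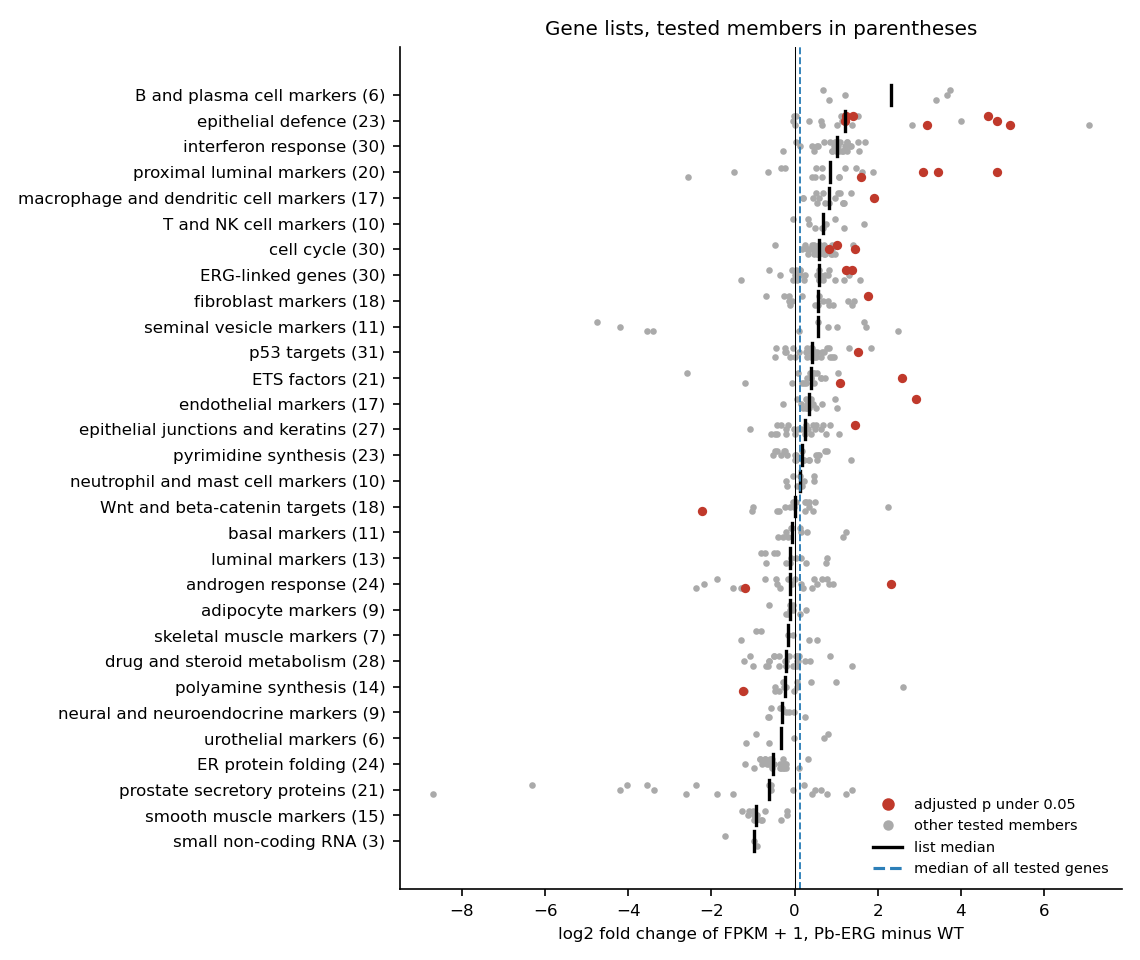
Change of every tested member of 30 gene lists from WT to Pb-ERG, in log2 units of FPKM + 1, ordered by list median (black tick), with members past the test in red and the median of all genes tested (0.13) as a dashed line. Epithelial defence (7 of 23) and proximal luminal markers (4 of 20) have the most red points of a single list, every other list has 3 or fewer, and the medians of the secretory proteins and of smooth muscle lie left of 0 with no red point.

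Markers of other cell types differed between libraries and are given for the whole lists. Smooth muscle markers (15 tested, 0 called, all 15 changes negative, median -0.93) summed to 1963, 2486 and 1743 FPKM in WT and to 2158, 466 and 1135 in Pb-ERG. Pb-ERG replicate 1 lay in the WT range, and replicates 2 and 3 lay below it. Of 18 fibroblast markers 1 was called, Col1a1, a chain of type I collagen, which rose from 4.20 to 7.07 in WT to 13.6, 31.3 and 23.4 in Pb-ERG (change 1.77, adjusted p = 0.0264), while Dcn, the most abundant, overlapped at 178 to 260 and 191 to 281. The fit without Pb-ERG replicate 1 called 3 fibroblast and 2 endothelial markers higher, and 1 smooth muscle and 1 skeletal muscle marker lower. Of 17 endothelial markers 1 was called, Ecscr, which rose from 2.32 to 4.46 in WT to 15.7, 28.1 and 59.8 in Pb-ERG (change 2.92, adjusted p = 0.0138). The defining endothelial genes Pecam1 (4.76 to 7.37 and 5.94 to 7.24) and Emcn overlapped. The calls of Col1a1 and Ecscr were lost without WT replicate 1 or 3 or Pb-ERG replicate 2 or 3, and that of Col1a1 also without WT replicate 2. With all libraries no gene was called among skeletal muscle (7 tested), adipocyte (9), neural and neuroendocrine (9) and urothelial markers (6).

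The summed markers of B and plasma cells, of T and NK cells and of macrophages were highest in Pb-ERG replicates 2 and 3, while those of neutrophils and mast cells were highest in WT replicate 2 (33.9 FPKM). B and plasma cell markers summed to 86.3, 30.7 and 12.9 FPKM in WT and to 122, 598 and 1277 in Pb-ERG, with 0 of 6 tested called and a median of 2.31. The defining B cell gene Cd79b stayed low, at 0.0442 to 0.199 in WT and 0.278, 1.34 and 1.51 in Pb-ERG, and most of the sum was Igkc and Ighm, immunoglobulin chains. T and NK cell markers summed to 4.49 to 5.78 in WT and to 7.58, 23.1 and 23.9 in Pb-ERG, with 0 of 10 called. Of 17 macrophage and dendritic cell markers 1 was called, Cd14, the receptor for bacterial lipopolysaccharide, which rose from 2.54 to 3.95 in WT to 10.3, 15.1 and 24.2 in Pb-ERG (change 1.91, adjusted p = 0.0146), a call lost without any library but Pb-ERG replicate 1. The macrophage count was 3 without Pb-ERG replicate 1, and the B cell and T cell counts were 1 each. The defining gene Adgre1 was at 1.42 to 2.42 in WT and 2.81 to 9.50 in Pb-ERG and did not pass. None of 10 neutrophil and mast cell markers was called. Of 30 interferon-response genes 0 were called, the median was 1.02, and 11 lay above all WT libraries, against 22.8% of all genes tested. Without Pb-ERG replicate 1, 8 of these 30 genes were called higher. The part of immune cells in the epithelial defence values was not tested. Of the 7 called defence genes Wfdc2, Ltf and Saa2 were lowest in Pb-ERG replicate 1, where the B cell, T cell and macrophage sums were nearest WT, and Lcn2 was highest there.

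Seminal vesicle markers, from a gland attached to the prostate, varied widely within both groups. Svs2 was at 4563, 80.3 and 5235 in WT and at 5852, 3.27 and 2.95 in Pb-ERG, and Svs4 at 224, 24.6 and 109 in WT and at 9022, 43.1 and 50.8 in Pb-ERG. The sum over the list was 17060, 21561 and 32102 in WT and 28501, 5988 and 1106 in Pb-ERG, so the sum of replicate 1 lay in the WT range. A single member, Spink1, made up much of it, at 7652, 21274 and 19857 in WT and 5917 in Pb-ERG replicate 2. Svs5 was among the 10 most abundant genes only in Pb-ERG replicate 1, at 9152. The sum therefore does not rank the libraries by the other members. None of 11 tested members was called, and 3 were called lower without Pb-ERG replicate 1. The part of these markers in the other results was not tested.

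**Figure D4:**
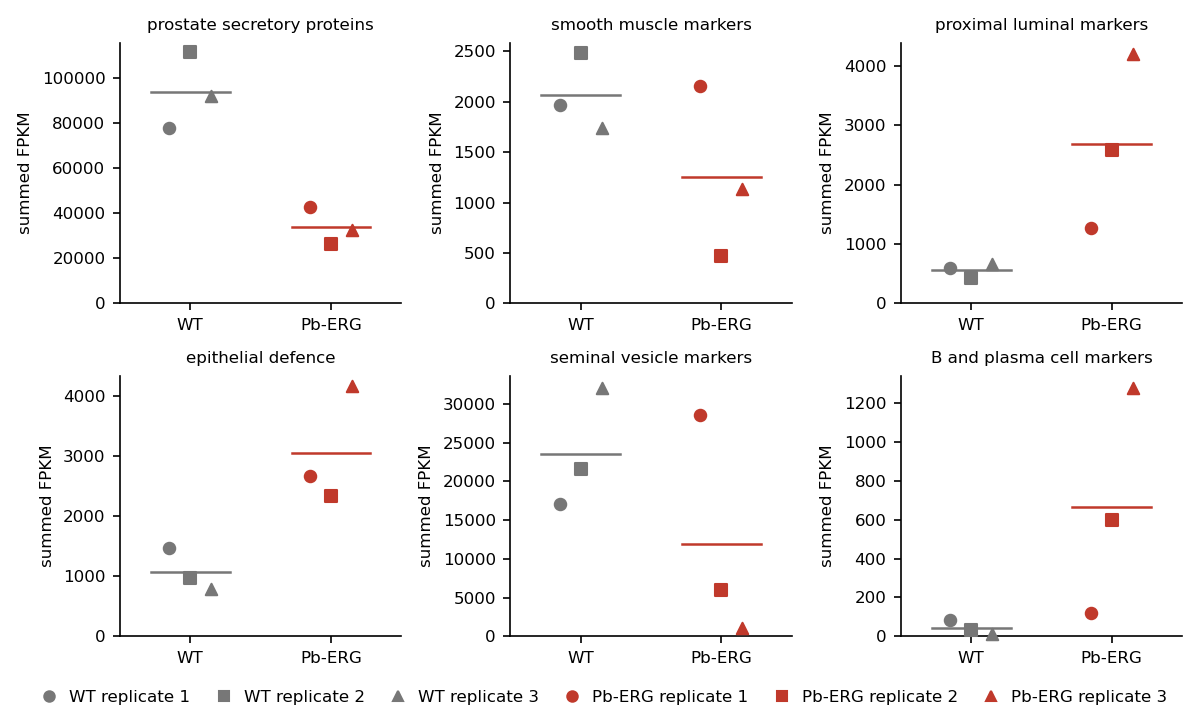
Summed FPKM of 6 gene lists in each of the 6 libraries, with a line at the group mean and a linear axis from 0. Secretory proteins are lower and proximal luminal and epithelial defence genes higher in all 3 Pb-ERG libraries, while for smooth muscle and seminal vesicle markers the sum of Pb-ERG replicate 1 lies in the WT range. Most of the proximal luminal sum in Pb-ERG is Clu, Ly6a and Wfdc2. Spink1 is much of the seminal vesicle sum in WT and in Pb-ERG replicate 2.

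The 10 most abundant genes of a library took 29.1%, 44.6% and 32.1% of the FPKM total in WT (35.3% ± 8.18, SD, n = 3) and 27.9%, 21.1% and 20.7% in Pb-ERG (23.2% ± 4.07, n = 3). The groups did not overlap, and the exact permutation test, two-sided, gave p = 0.1, the smallest that 3 against 3 libraries allow. The difference of -12.03 percentage points became -7.39 without WT replicate 2. The small non-coding RNA Rn7sk ranked first in every library, at 103689 FPKM in WT replicate 2 and at 20603 to 37624 in the others. The number of genes with an FPKM of at least 1 was 12485, 12561 and 12389 in WT and 12992, 14158 and 13968 in Pb-ERG, a difference of 1228 with the same exact p. Pb-ERG replicate 1 was nearest WT in both measures.

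The same transgene was then compared on the Trp53pcR172H/- background, in 5 libraries that share no sample with the comparison of Pb-ERG and WT but share its estimate of the spread. The study describes the tissue with both alterations as prostate tumour. With the transgene alone it reports focal low-grade lesions in some mice of this age. The effect of the transgene and tumour formation cannot be told apart on that background. Of the 246 genes higher in Pb-ERG, 236 had the same sign there and 181 (73.6%) were called higher, against 11.5% of all genes tested. Of the 50 lower genes 49 had the same sign and 39 (78.0%) were called lower, against 3.27%. None was called in the opposite direction. The median change there was 1.69 for the higher and -1.77 for the lower genes, against 0.22 over all genes. In turn the shared genes were 10.1% of the 1791 called higher and 7.66% of the 509 called lower in that background. Lman1l had 2.44 and 1.16 in Trp53pcR172H/- and 630, 193 and 161 with the transgene (change 6.63, adjusted p = 0.000268), and Fgl1 had 274 and 204 and then 0.475, 4.87 and 1.06 (change -6.50, adjusted p = 0.000243).

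Some genes called against WT did not pass there. Saa3 was at 0.779 and 5.67 in Trp53pcR172H/- and at 3.41, 21.1 and 26.1 with the transgene (adjusted p = 0.12), and Elf3 changed by 0.10 there (adjusted p = 0.823). Clu was already at 870 and 372 in Trp53pcR172H/- and at 509.5, 1979 and 1418 with the transgene (change 0.98, adjusted p = 0.483). For none of these 3 genes did the difference between the backgrounds pass its own test (adjusted p = 0.291, 0.246 and 0.51). Over all genes that test called 73 of 15583, of which 5 were among the 296: Ctla2b, Gatm, Pdgfrl, Mir8107 and Gm5514.

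**Figure D5:**
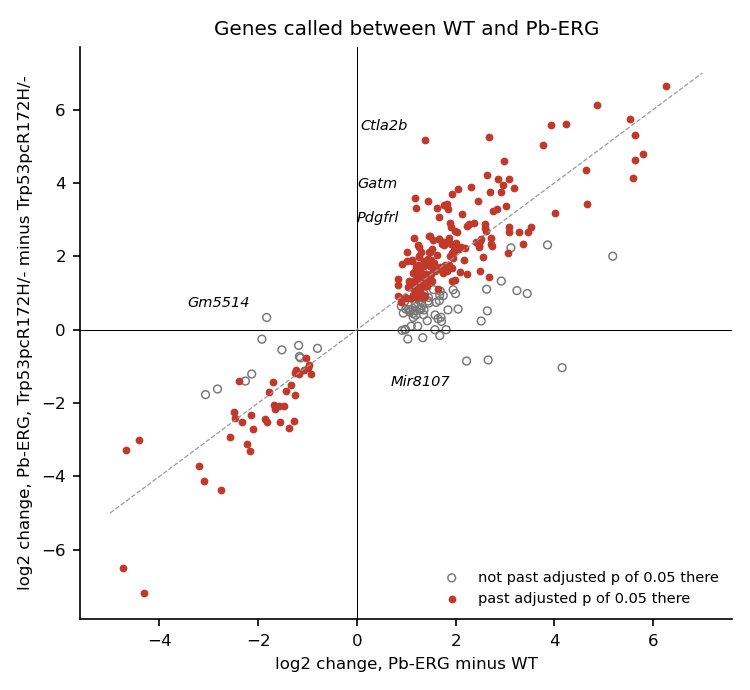
Change with the transgene on the Trp53pcR172H/- background (vertical, 3 against 2 libraries) against the change from WT to Pb-ERG (horizontal, 3 against 3) for the 296 genes called from WT to Pb-ERG, in log2 units of FPKM + 1, with equality as a dashed line and genes past the test on both backgrounds in red. Most points share the sign of both changes, and the 5 named genes are those whose changes differed by the test of the difference.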

How the data were processed

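Prostate RNA of 11 mouse libraries was extracted with an RNeasy kit and sequenced on Illumina instruments. Per the submitters' processing notes reads were aligned with STAR 2.5.2b to GRCm38/mm10, and the authors deposited FPKM values per gene, counted and normalised with RSeQC per their methods. Here log2(FPKM + 1) was fitted with limma 3.58.1 in R 4.3.3 over all 11 libraries (7 residual degrees of freedom, variance trend), for the 15583 of 29291 loci that reached 1 FPKM in 2 or more libraries. P-values were adjusted by Benjamini-Hochberg over all of them, and an adjusted p under 0.05 was called. Alternatives changed the pseudocount, filter, scaling, samples, weights, prior variance and covariates, left out single libraries, or used voom on fragments recovered from the FPKM steps, which were whole at 99.47% to 99.79% of short loci. Single values were compared with exact permutation tests (scipy 1.17.1). The fit was tested on simulated data.

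Genes named were the 12 largest called rises and 12 largest called falls with a mean FPKM of at least 5 in the higher group and no overlap, up to 4 called members per direction and the most abundant member of each of 30 lists, and Erg and Trp53. The comparison and the lists were chosen with earlier results of these data known. The study gives 3 mice per group, with 1 Trp53pcR172H/- mouse left out for poor data quality, and each library was taken as 1 mouse.

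Some items are not reported here.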

Additional observations from a re-analysis of the deposited data

Results flagged for a closer look

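The change with the transgene differed between the backgrounds for 5 of the 296 genes called from WT to Pb-ERG, by limma's test of the difference itself. With voom on recovered fragments none of these differences passed. Ctla2b, a relative of a T cell protease inhibitor, was at 0.704, 1.55 and 0.938 FPKM in WT and 4.81, 3.29 and 4.89 in Pb-ERG. It was at 0.555 and 0.855 in Trp53pcR172H/- and at 62.3, 62.6 and 55.7 with the transgene. The change there was larger by 3.7949 on the log2 scale (adjusted p = 0.00154).

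Gatm, the first enzyme of creatine synthesis, was at 2.17 to 2.60 in WT and 3.99, 7.97 and 8.38 in Pb-ERG, against 3.76 and 4.37 and then 57.3, 63.7 and 57.9 on the Trp53pcR172H/- background, a difference of 2.4154 (adjusted p = 0.0189). Pdgfrl, a secreted receptor-like protein, was at 0.276 to 0.654 in WT and 1.41, 3.68 and 2.21 in Pb-ERG, against 0.411 and 0.814 and then 13.4, 13.4 and 18.8, a difference of 2.1299 (adjusted p = 0.0431). In these 3 genes the libraries with both alterations, from tissue that the study describes as tumour, stood above all others.

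Mir8107 was at 0 to 0.541 in WT and 2.38, 8.72 and 5.70 in Pb-ERG, and at 2.18 and 2.39 and then 0.455, 1.26 and 0.814 on the other background, a difference of -3.0784 (adjusted p = 0.0367). Gm5514 was at 2.48 to 3.61 in WT and 0 to 0.257 in Pb-ERG, and at 0 to 0.312 and then 0.120 to 1.04, a difference of 2.1599 (adjusted p = 0.0407). Both are short loci at low levels, with at most 53 (Mir8107) and 19 (Gm5514) fragments in any of the 6 libraries of WT and Pb-ERG.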

How the results depend on the processing

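The number of genes changed from WT to Pb-ERG was 296. It was 0 at an adjusted p under 0.001 (limma, with 3022 genes at an unadjusted p under 0.05), 522 with log2(FPKM + 0.1), 133 with log2(FPKM + 5), 79 with no filter on low values, 454 with only the groups of the comparison, 104 with the class of small non-coding RNA share (high or low) added as a covariate and 860 with array weights. Leaving out single libraries gave 55 to 1312. No gene of the 296 changed sign in these fits. With a library left out, or with another pseudocount or filter, no other outcome was possible. Every Pb-ERG value of these genes lay beyond every WT value. On the Trp53pcR172H/- background 2300 genes were called, and 172 at 0.001, 944 with only its groups, 3519 with array weights and 962 to 2534 with single libraries left out. The difference between the backgrounds was called for 73 genes, and for 0 at 0.001 (1562 at an unadjusted p under 0.05), 20 with log2(FPKM + 0.1), 39 with no filter, 26 with upper-quartile scaling, 4 with the small non-coding RNA covariate, 239 with array weights, 0 with voom (1363 unadjusted) and 6 to 193 with single libraries left out. The causes were not tested. Replicate numbers did not pair the libraries (r of 0.001, 0.073 and -0.14 between same-numbered WT and Pb-ERG libraries), and the replicate block gave 228 calls from WT to Pb-ERG and 33 for the difference.

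Of the 44 named genes called, 15 passed in every alternative and 16 with each library left out. Of 28 not called, 4 changed sign. Mcpt4 took 0.003 with log2(FPKM + 0.1), 0.3225 with the covariate and 0.4231 with array weights, and -0.5205 to 0.4504 with libraries left out. Fabp4 took 0.1203 with the covariate and 0.4986 with array weights, and -0.8952 to 0.7464 with libraries left out. Hspa5 ran from -1.2007 to 0.0947 and Uchl1 from -0.6496 to 0.049 with libraries left out. With 3 libraries a group, 1 library decided many calls, and FPKM steps near 1 fragment limit the loci near 0.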
